A study of Mus musculus with 8 samples.

Results

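The creatine kinase and creatine supply genes are 7 of the 47434 genes measured here. They comprise 4 kinases (Ckb, Ckm, Ckmt1 and Ckmt2), 2 enzymes of creatine synthesis (Gatm and Gamt) and the creatine transporter gene Slc6a8. They form a named list, chosen by their place in creatine metabolism after the counts of this comparison, with little Ckb RNA in the knockout, were known. The values of knockout against wild-type cells below are therefore a description, with no test for these 7 genes. The samples were 4 poly-A RNA libraries of G9a knockout Hepa 1-6 cells and 4 libraries of wild-type (WT) Hepa 1-6 cells, a line derived from a mouse hepatoma. G9a, encoded by Ehmt2, is a histone H3 lysine methyltransferase linked to gene silencing. The labels name no treatment, clone or separate culture, so the spread between libraries may be technical.

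Creatine is made in a pair of enzyme steps. Gatm transfers the amidino group of arginine to glycine, which gives guanidinoacetate and ornithine, and Gamt methylates guanidinoacetate with S-adenosylmethionine. Liver is known for the methylation step, and other tissues take up creatine from blood through Slc6a8, a sodium- and chloride-coupled transporter. Creatine kinases move a phosphate group between ATP and creatine. Ckb and Ckm encode the cytosolic brain and muscle forms, and Ckmt1 and Ckmt2 the ubiquitous and sarcomeric mitochondrial forms.

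The 250 bases before the start site are shown for 3 of the genes: Ckb, whose RNA was nearly absent from the knockout, and Gatm and Gamt, which were expressed in both groups. They are RefSeq windows on GRCm38.p6, written 5′ to 3′ on the strand of the gene. Capitals mark TATAAA and CCAAT, searched on both strands, so that TTTATA and ATTGG are marked too.
Ckb (chr12:111672339-111672588, minus strand): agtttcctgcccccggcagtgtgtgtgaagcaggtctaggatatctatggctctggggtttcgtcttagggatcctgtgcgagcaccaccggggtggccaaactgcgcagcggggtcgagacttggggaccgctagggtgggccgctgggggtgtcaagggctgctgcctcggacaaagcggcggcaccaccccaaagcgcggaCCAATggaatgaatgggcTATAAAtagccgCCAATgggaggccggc
Gatm (chr2:122611278-122611527, minus strand): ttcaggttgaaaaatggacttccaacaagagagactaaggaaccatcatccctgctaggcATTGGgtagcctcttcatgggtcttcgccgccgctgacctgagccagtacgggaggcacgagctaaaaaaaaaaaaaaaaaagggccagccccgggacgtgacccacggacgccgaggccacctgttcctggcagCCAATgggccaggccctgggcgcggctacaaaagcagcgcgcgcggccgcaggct
Gamt (chr10:80261013-80261262, minus strand): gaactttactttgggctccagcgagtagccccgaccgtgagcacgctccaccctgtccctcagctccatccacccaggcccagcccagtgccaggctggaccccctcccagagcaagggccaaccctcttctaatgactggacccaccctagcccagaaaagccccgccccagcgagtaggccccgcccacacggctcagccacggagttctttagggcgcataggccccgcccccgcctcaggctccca

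The Ckb window holds 1 TATAAA, whose first base lies 28 bases before the start site, between 2 CCAAT motifs at 46 and 16 bases. None of these matches overlap. Of 32851 such windows over all genes, 12.4% hold TATAAA in either orientation and 33.8% hold CCAAT. Gatm has 2 CCAAT motifs, at 190 and 55 bases before the start site, and no TATAAA, and Gamt has neither motif. The windows of Ckb and Gatm are alike in CG pairs, with 16 and 17, against a median of 6 over all windows. At least 16 pairs are found in 25.4% of all windows. Gamt has 12 CG pairs and Ckm, not shown, has 6. The 2 Ckmt1 windows have 4 and 9 CG pairs and the Ckmt2 window 2. The table used holds no window for Slc6a8. These matches describe letters only.

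Library totals lay between 58256100 and 75025236 counts, where CPM stands for counts per 1000000 counts of a library. A gene with 0 counts in a library may have had a level of up to 3 counts (a one-sided 95% limit), or 0.04 to 0.0515 CPM by library. This limit covers counting error only. With CPM normalized for library composition by TMM, Ehmt2 was lower in every knockout library. It had 116.7, 116.7, 119.8 and 118.8 CPM there, against 345.4, 307.1, 297.6 and 306.6 CPM in WT. Its log2 fold change was -1.41 ± 0.05 (standard error, SE, n = 4 per group; edgeR, adjusted p = 3.82e-10). Of 9 hepatocyte markers, 7 had no counts in any library, Alb and Hnf4a among them. In bulk RNA, fewer expressing cells and less RNA per cell cannot be told apart.

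Ckb (ENSMUSG00000001270, chromosome 12, 111669361 to 111672338, GRCm38, minus strand) was the only creatine kinase gene with counts in WT. It had 10, 11, 17 and 0 counts in the knockout libraries, against 868, 955, 999 and 859 counts in WT. On the CPM scale, normalized for library composition by TMM as are all CPM values of genes below, these were 0.13, 0.159, 0.286 and 0 in the knockout, against 14.2, 14.5, 14.5 and 13.6 in WT. The highest knockout library thus lay far below the lowest WT library. The knockout mean was 0.144 ± 0.117 CPM and the WT mean 14.2 ± 0.392 CPM (SD, n = 4 each), so the knockout mean was 1.01% of the WT mean. The log2 fold change, knockout minus WT as in all values below, was -6.66 ± 0.33 (SE, n = 4 per group). It was the 21st lowest of 15840 genes tested, and it was -7.47 with limma-voom. It rests on 38 knockout counts in all. The exact two-sided Poisson 95% interval of the highest knockout count, 17, runs from 9.9 to 27.2 counts. A single annotated transcript with 8 exons took all of these counts. The annotated pseudogenes Ckb-ps1 and Ckb-ps2 had no counts in any library.

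The other 3 kinase genes were at or near the detection limit. Ckmt1 (10 annotated transcripts) and Ckmt2 (1 transcript) had 0 counts in all 8 libraries. Ckm had 0, 5, 0 and 4 counts in the knockout libraries and 0 in each WT library, which is at most 0.0722 CPM. No fold change is given for it, since the mean of both groups lies under 3 counts per library. All 9 Ckm counts fell on 1 of its 3 annotated transcripts, Ckm-203. The span of the antisense gene A930016O22Rik, introns included, overlaps that of Ckm over 3952 bases. That gene had 7 counts in the knockout and 0 in WT. Whether the Ckm counts are reads of A930016O22Rik was not tested. The use of strand is not given in the sources used here, and overlap of exons was not examined. Over the 4 genes together, creatine kinase counts were 10, 16, 17 and 4 in the knockout libraries, against 868, 955, 999 and 859 in WT. In the knockout these are the 38 counts of Ckb and the 9 of Ckm, and knockout replicate 4 had counts of Ckm but none of Ckb.

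**Figure D1:**
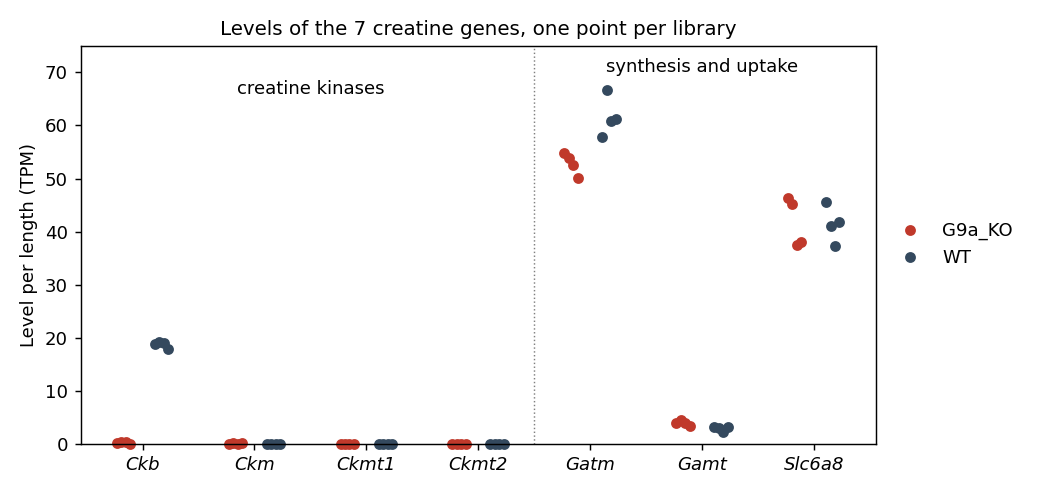
Level per length in TPM (counts per kilobase of transcript, scaled to a sum of 1000000) of the 7 creatine genes, one point per library, knockout in red and WT in dark blue. Ckb lies at or below 0.385 TPM in the knockout and between 17.8 and 19.1 TPM in WT, and the other kinase genes lie at or near 0 in both groups.

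Creatine synthesis and uptake genes were expressed in both groups, at levels that differed far less. Gatm (ENSMUSG00000027199, chromosome 2, 122594467 to 122611303), which makes guanidinoacetate, had 63.4, 59.2, 62.8 and 58.2 CPM in the knockout libraries, against 69.5, 80.7, 74.4 and 74.6 CPM in WT. All knockout libraries lay below all WT libraries. The means were 60.9 ± 2.6 CPM in the knockout and 74.8 ± 4.58 CPM in WT (SD, n = 4 each), a log2 fold change of -0.30 ± 0.06 (SE). Its only coding transcript took 98.9% to 99.6% of its counts in the knockout and 99.3% in each WT library.

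Gamt (ENSMUSG00000020150, chromosome 10, 80258151 to 80261012), the methyltransferase of the second step, was weakly expressed. It had 1.87, 2.07, 1.93 and 1.63 CPM in the knockout libraries, against 1.53, 1.47, 1.07 and 1.62 CPM in WT. The groups were barely separated, since the lowest knockout library (1.626 CPM) and the highest WT library (1.619 CPM) nearly met. The log2 fold change was 0.40 ± 0.20 (SE), with means of 1.87 ± 0.184 CPM in the knockout and 1.42 ± 0.242 CPM in WT (SD, n = 4 each). Noncoding transcripts took 0.7% to 33.0% of Gamt counts in the knockout libraries and 6.38% to 25.7% in the WT libraries, so the split among transcripts varied widely within both groups.

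Slc6a8 (ENSMUSG00000019558, chromosome X, 73673150 to 73682502), the importer of creatine, had 62.1, 65.4, 57.4 and 65.4 CPM in the knockout libraries, against 69.1, 59.9, 57.7 and 61.9 CPM in WT. The groups overlapped over most of their range. The log2 fold change was 0.01 ± 0.06 (SE). The most abundant of its 13 annotated transcripts held 38.6% to 81.4% of the counts in the knockout and 44.9% to 52% in WT. Counted on that transcript alone the log2 fold change was 0.19, so values of single Slc6a8 transcripts are less certain than their sum.

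**Figure D2:**
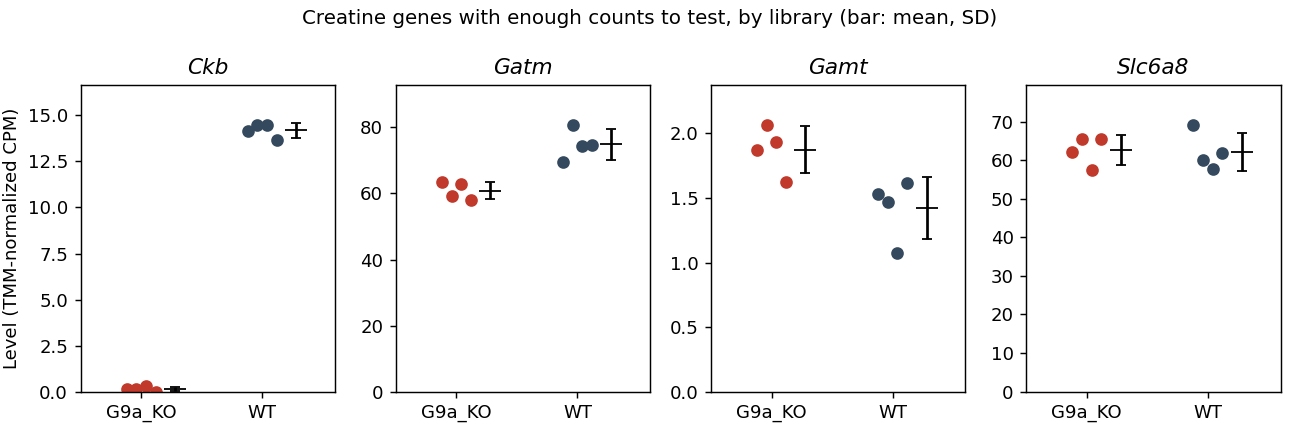
TMM-normalized CPM of the 4 creatine genes that passed the filter on low counts, one point per library, with mean and SD beside each group and each axis starting at 0. Ckb is 0.144 CPM on average in the knockout and 14.2 CPM in WT, Gatm is lower in the knockout by a smaller step, Gamt is slightly higher, and the Slc6a8 groups overlap.

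Of the 7 genes, 4 passed the filter on low counts (edgeR's filterByExpr, which needs about 10 counts in at least 4 libraries, of whichever group). Ckb passed through its WT libraries, since knockout replicate 4 had 0 counts. In the fit over all genes, 2 of these 4 (Ckb and Gatm) had an edgeR adjusted p under 0.05, both as lower. This is no test of genes chosen in this way. Over all 15840 genes tested, 47.2% were called in either direction, 23.6% as lower and 23.6% as higher. Groups did not overlap for 3 of the 4 genes (Ckb and Gatm lower, Gamt higher), against 43.9% of all genes, 22.5% higher and 21.4% lower. Nothing is read from these counts, since the genes were chosen with this comparison known. With library totals alone as the scaling, 62.4% of called genes were higher, against 50.1% with TMM.

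Levels of different genes were compared per length, in TPM. In the knockout the order was Gatm (50.2 to 54.9 TPM), Slc6a8 (37.5 to 46.3 TPM), Gamt (3.41 to 4.44 TPM) and Ckb (0 to 0.385 TPM), with Ckm (0 to 0.0559 TPM) overlapping Ckb. In WT the order was Gatm (57.9 to 66.7 TPM), Slc6a8 (37.3 to 45.6 TPM), Ckb (17.8 to 19.1 TPM) and Gamt (2.16 to 3.17 TPM), and no neighbours in that order overlapped. Ckb thus stood below Gamt in every knockout library and above it in every WT library. In the knockout 4.58% of tested genes had a lower mean TPM than Ckb, against 59.7% in WT. RNA of the first enzyme exceeded that of the second in every library. The ratio of Gatm to Gamt TPM was 13.6 ± 1.12 in the knockout and 22.3 ± 4.27 in WT (SD, n = 4 each). Its ranges were 12.1 to 14.7 and 19 to 28.2. Both TPM values include noncoding transcripts, which took 0.7% to 33.0% of Gamt counts in the knockout and 6.38% to 25.7% in WT.

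The values of each gene were set beside those of the genes around it. Among the 40 tested genes nearest to Ckb, 20 on each side over a span of 2.06 Mb in all, the median log2 fold change was 0.10, and 5 rose, 6 fell and 29 did not pass (edgeR, adjusted p under 0.05). The lowest of them, 2810029C07Rik, was at -0.99. The nearest tested genes on both sides fell by a small amount. Mark3, a microtubule affinity regulating kinase gene, had 54.2 ± 2.23 CPM in the knockout and 63.7 ± 2.88 CPM in WT (log2 fold change -0.23 ± 0.05, adjusted p = 0.00221, edgeR). Trmt61a, a tRNA methyltransferase subunit gene whose start lies 5766 bases beyond Ckb, had 16.8 ± 1.46 CPM in the knockout and 21.9 ± 1.72 CPM in WT (log2 fold change -0.38 ± 0.08, adjusted p = 0.00167, edgeR). Relative to its neighbours Ckb stood at -6.76.

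Gatm and Ckmt1 lie on chromosome 2, in a stretch where most genes were lower. Of the 40 tested genes nearest to Gatm, 26 fell, 4 rose and 10 did not pass, with a median log2 fold change of -0.40. The nearest on each side, Shf and Spata5l1, fell by 0.68 and 0.89 (SE 0.09 and 0.08; edgeR, adjusted p = 3.16e-05 and 1.38e-06). Gatm itself, at -0.30, lay between the quartiles of these neighbours (-0.58 and 0.10), and at 0.11 once their median was subtracted. Around Ckmt1, 29 of 40 genes fell and 1 rose, with a median of -0.58, while Ckmt1 itself had no counts. Gatm is among these 29. The neighbours on one side of Gatm, from Ppip5k1 to Shf, also count as neighbours of Ckmt1, so these counts are not independent. The neighbours of Gamt had a median of -0.12 and those of Slc6a8 of -0.08, so these genes stood at 0.52 and 0.09 relative to them. Of the 14 nearest tested genes on either side of the 7 members, 8 fell and 6 did not pass, against 23.6% lower over all tested genes. Untested genes may lie between, and Shf starts the gap of 225304 bases to Gatm. Ppip5k1, Shf and Spata5l1, among the 8, lie in the lowered stretch of chromosome 2, so the 14 are not independent. Of the 8, Dusp9 was not called under 8 alternatives, Ppip5k1, next to Ckmt1, under 4, and Ndufs7 under 1.

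**Figure D3:**
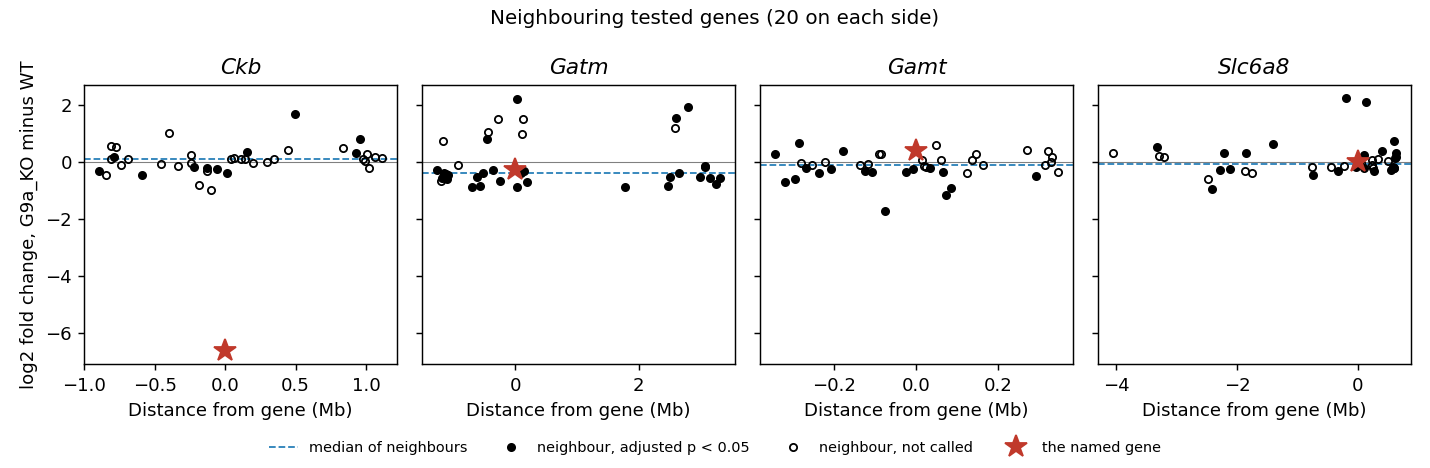
Log2 fold change (knockout minus WT) of the 20 nearest tested genes on each side of Ckb, Gatm, Gamt and Slc6a8 against their distance in Mb, filled where the adjusted p was under 0.05, with the median as a dashed line and the named gene as a star. Ckb, at -6.66, lies far below its neighbours, whose lowest value is -0.99, and Gatm lies among lowered neighbours.

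The profile of Ckb over the 8 libraries was closest to those of Slc43a3, Arl6ip1, Slco4a1 and Stk39, with distances of 0.86, 0.895, 1.46 and 1.64 (Euclidean distance of centred log2(CPM + 0.5) values, over 8 libraries and 15840 genes). Slc43a3, a nucleobase transporter gene, had 0.274 ± 0.178 CPM in the knockout and 21.4 ± 1.91 CPM in WT, and Arl6ip1, which encodes a protein that shapes the endoplasmic reticulum, 1.74 ± 0.356 and 70.4 ± 2.56 CPM. Slc43a3, Slco4a1 and Stk39 lie on chromosome 2, as Gatm and Ckmt1 do, and Arl6ip1 on chromosome 7. Their likeness rests on the same difference between the groups that singled out Ckb.

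Genes of the pathways that feed creatine synthesis moved in both directions. Among 12 tested genes of methyl donor supply, 6 fell and 1 rose (edgeR, adjusted p under 0.05), with a median log2 fold change of -0.17, against 0.0037 over all tested genes. Of all tested genes, 23.6% fell and 23.6% rose. Ahcy, whose product hydrolyses S-adenosylhomocysteine, the by-product of the Gamt reaction, had 470.8, 450.3, 469 and 484.1 CPM in the knockout libraries, against 756, 707.7, 725.8 and 730.4 CPM in WT. No knockout library reached the lowest WT library. The log2 fold change of Ahcy was -0.64 ± 0.04 (adjusted p = 3.44e-08, edgeR), and its 40 neighbours on chromosome 2 had a median of -0.42. Mtr, the methionine synthase, and Ahcyl1, a relative of Ahcy, fell by 0.37 ± 0.07 and 0.27 ± 0.04 (adjusted p = 0.000567 and 8.64e-05, edgeR). The 1 gene that rose, Gnmt, a glycine methyltransferase of liver, was at 0.395 ± 0.089 CPM in the knockout and 0.155 ± 0.072 CPM in WT (adjusted p = 0.0349, edgeR). Gnmt was not called under 9 of 15 alternatives, all genes of at least 1 read and the replicate block among them. It was not fitted with a minimum of 5 CPM, and it was named after its values were seen.

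Of 16 tested genes of arginine and glycine supply, 9 fell and 4 rose, against 23.6% in each direction over all tested genes. The median of the list was -0.12. Shmt2 and Shmt1, the mitochondrial and cytosolic enzymes that make glycine from serine, had 278.7 ± 2.66 and 71 ± 1.68 CPM in the knockout, against 407 ± 17.6 and 92.4 ± 3.38 CPM in WT (log2 fold changes -0.55 ± 0.04 and -0.38 ± 0.05, adjusted p = 2.35e-07 and 1.68e-05, edgeR). Arg1, the arginase that splits arginine into urea and ornithine, rose and had 12.2, 11, 9.3 and 11.4 CPM in the knockout libraries, against 4.86, 4.51, 5.1 and 4.78 CPM in WT. Its groups did not overlap, and its log2 fold change was 1.19 ± 0.10 (adjusted p = 8.82e-07, edgeR). Odc1, which uses the ornithine that Gatm and arginase release, fell by 0.25 ± 0.03 (adjusted p = 5e-05, edgeR). Otc and Slc7a2 had no counts in any library. The widest values of this list belonged to weakly expressed genes, named after their values were seen. Nos2, an inducible nitric oxide synthase gene that also uses arginine, had 0.416, 0.664, 0.673 and 0.378 CPM in the knockout, against 0.065, 0, 0 and 0 CPM in WT. No fold change is given for Nos2, since its WT mean lies under 3 counts per library. Gldc, the glycine decarboxylase gene, had 0.133 ± 0.119 CPM in the knockout and 0.471 ± 0.077 CPM in WT (log2 fold change -1.81 ± 0.69, adjusted p = 0.0454, edgeR), and was not called under 10 of 15 alternatives, library totals alone among them. With library totals alone as the scaling, 5 genes of this list fell.

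Other kinases that pass phosphate between nucleotides had 3 of 15 tested genes higher, 2 lower and 10 that did not pass, with a median of -0.04. Each direction held 23.6% of all tested genes. Ak3, a mitochondrial adenylate kinase that uses GTP, had 53.4 ± 2.91 CPM in the knockout and 33 ± 2.63 CPM in WT (log2 fold change 0.69 ± 0.07, adjusted p = 1.9e-06, edgeR). Ak1, the cytosolic adenylate kinase, was at 5.86, 4.59, 5.46 and 6.07 CPM in the knockout libraries, against 2.64, 2.88, 2.65 and 3.4 CPM in WT, with no overlap (log2 fold change 0.93 ± 0.14, adjusted p = 0.000102, edgeR). Per length it averaged 5.7 TPM in the knockout and 2.97 TPM in WT, below the 18.7 TPM of Ckb in WT. Ak4 fell by 0.53 ± 0.06 and Nme4, a mitochondrial nucleoside diphosphate kinase gene, by 0.39 ± 0.11 (adjusted p = 6.18e-06 and 0.0107, edgeR).

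Genes of nucleotide exchange at the mitochondrion, where mitochondrial creatine kinases act, had 2 of 7 tested genes higher and 2 lower, with a median of -0.05. The share over all tested genes was 23.6% in each direction. Vdac3, an outer membrane channel gene, had 184.3 ± 11.7 CPM in the knockout and 131.8 ± 11.4 CPM in WT (log2 fold change 0.48 ± 0.07, adjusted p = 4.41e-05, edgeR), close to the median of 0.42 of its neighbours on chromosome 8. The ADP/ATP carrier genes Slc25a4 and Slc25a5 had log2 fold changes of 0.17 ± 0.06 and -0.12 ± 0.04 (adjusted p = 0.0341 and 0.0301, edgeR), and both lost their call under several alternatives. Ppif, the matrix cyclophilin gene, fell by 0.20 ± 0.05 (adjusted p = 0.00733, edgeR) and was not called with library totals alone, at -0.12.

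Among 17 relatives of Slc6a8 and the creatine exporter gene Slc16a12, 4 could be tested, of which 1 rose and 2 fell, with a median of -0.03. Over all tested genes 23.6% rose and 23.6% fell. Slc6a9 and Slc6a5, also relatives of Slc6a8, were placed under arginine and glycine supply and are not counted here. Slc6a9, named after its values were seen, fell by 0.52 ± 0.09 (adjusted p = 0.000332, edgeR), and Slc6a5 was not tested. Slc6a6, the taurine transporter gene, had 362.9, 392.1, 343.1 and 355.7 CPM in the knockout, against 466, 453, 438 and 468.7 CPM in WT (log2 fold change -0.33 ± 0.05, adjusted p = 7.59e-05, edgeR). Slc6a17, a transporter gene of synaptic vesicles, rose to 51.5 ± 4.03 CPM in the knockout, against 25.4 ± 3.75 CPM in WT (log2 fold change 1.02 ± 0.09, adjusted p = 1.33e-06, edgeR). The second gene that fell, Slc6a12, a betaine transporter gene, was at 0.188 ± 0.059 CPM in the knockout and 0.485 ± 0.295 CPM in WT. Its adjusted p was 0.0448 (edgeR), its groups overlapped, and it was named after its values were seen. Slc6a12 was not called under 11 of 15 alternatives. The list held 1 gene that fell, not 2, with library totals alone, with other filters and with limma-voom. Slc16a12 was at 0.074 CPM in the knockout and 0.02 CPM in WT and was not tested. Per length, Slc6a6 stood above Slc6a8, at 129 and 154.6 TPM in the knockout and WT.

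**Figure D4:**
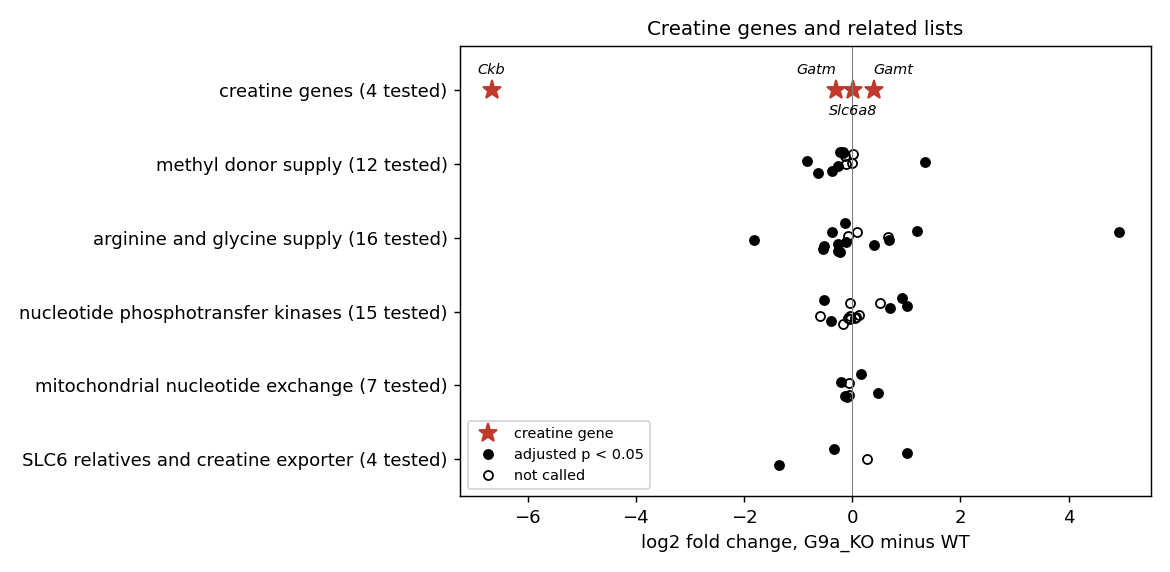
Log2 fold change (knockout minus WT) of the 4 tested creatine genes (stars) and of the tested genes of 5 related lists (points, filled where the adjusted p was under 0.05, spread vertically for legibility). Ckb stands at -6.66, while the lowest value of the lists is -1.81 (Gldc) and the other creatine genes lie between -0.30 and 0.40. The point farthest to the right is Nos2, whose place is uncertain because 3 of its WT libraries had no counts.

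Because Ckm and Ckmt2 are muscle genes, muscle markers were listed beside them. Of 26, 12 could be tested, of which 8 rose and 1 fell, against 23.6% in each direction over all tested genes. Several of these were near the detection limit. Myh1 and Myl1, which rose, had 0.31 CPM each in the knockout and 0 in WT, and Tnnc2 had 0.46 and 0.07 CPM. Tnnt1, which fell, had 0.07 CPM in the knockout and 0.40 CPM in WT, and 3 tested markers did not pass. Others that rose were further from that limit, with no overlap of the groups. In the knockout and WT, Des had 7.93 ± 1.03 and 2.37 ± 0.14 CPM, and Tnnt2 22.3 ± 1.28 and 14.3 ± 0.932 CPM. Tnnt3 had 21.9 ± 1.66 and 11.4 ± 1.72 CPM, and Pygm 1.67 ± 0.288 and 0.93 ± 0.107 CPM. The summed level of the 26 markers was 134.4 to 145.2 CPM in the knockout libraries and 82.5 to 85.6 CPM in the WT libraries. Most of it came from Eno3, an enolase gene, with 82.2 ± 2.25 CPM in the knockout and 53.4 ± 1.3 CPM in WT. The muscle transcription factor genes Myod1 and Myog and 7 others, the heavy chain genes Myh2, Myh4, Myh6 and Myh7 among them, had no counts in any library. The part of the muscle markers in the Ckm counts was not tested.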

How the data were processed

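RNA of 8 Hepa 1-6 libraries (4 G9a knockout, 4 wild type) was measured. The deposited table holds estimated counts for each transcript as whole numbers, with no normalization. Per the submitters' processing notes, FastQC, Trimmomatic, HISAT2 and GRCm38.p6 were used. Counting tool, strand use and annotation release: not given in the sources used here. Per the labels' protocols, libraries were poly-A selected.

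Of 115220 transcripts, 114332 matched GENCODE M21 (GRCm38) and were summed to 47434 genes. The other 888 held 0.148% to 0.17% of a library's counts and were left out. TPM used the annotated transcript lengths. Knockout and wild type were compared with edgeR 4.0.16 (R 4.3.3): quasi-likelihood F test, TMM, filterByExpr, genotype as the only term, two-sided, with p-values adjusted by Benjamini-Hochberg across the 15840 genes that passed. Each SE is the absolute log2 fold change over the root of its F value. The code was tested on simulated data. No library was a copy of another in its group, since counts of each pair differed beyond sampling (chi-square over degrees of freedom 10.9 or more). This compares with counting error only, so it cannot tell separate cultures from repeat libraries of one RNA.

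Alternatives were DESeq2 1.42.0, limma-voom (limma 3.58.1), other scalings, other filters, the replicate number as a block, leaving out libraries in turn, the most abundant transcript alone and subtraction of the neighbours' median. The members and lists were chosen with earlier results of these data known. Genes named from a related list are up to 4 called genes with the lowest p and at least 5 CPM in the higher group, and others are marked. Beside them stand the nearest tested genes on either side of each member, called next to it here, and the 4 profiles nearest to Ckb. Not all are described, and some named by the rule are not reported here. Python 3.11.15 was used for tables and figures.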

Additional observations from a re-analysis of the deposited data

Results flagged for a closer look

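Library values of the 4 tested creatine genes and of the other genes selected by rule, 42 genes and 84 groups of 4 libraries, were searched for a library far from the others of its group (Dixon's critical value for 4 samples). Chance alone gives about 1 in 20 groups, and 3 were found, none of them for a creatine gene. Trmt61a, next to Ckb, had 14.6 CPM in knockout replicate 3, against 17.4 to 17.7 CPM in the other knockout libraries. Ndufs7, next to Gamt, had 25.1 CPM in knockout replicate 2, against 28.9 to 29.4 CPM in the others. Dusp9, next to Slc6a8, had 80.8 CPM in WT replicate 1, against 70.1 to 71.1 CPM in the other WT libraries; its log2 fold change of -0.17 lost its call without that library (-0.12) and under 7 other alternatives.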

How the results depend on the processing

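Ckb kept its direction under all 17 alternatives run. Its log2 fold change was -7.47 with limma-voom and -7.17 to -6.24 with each library left out. The extremes of that range came without knockout replicates 3 and 4, which held 17 and 0 counts. Its size is thus less certain than its direction. Gamt (0.28 to 0.47) kept its direction with each library left out. It was not fitted with a minimum of 5 CPM. Slc6a8 lay between -0.03 and 0.06 with each library left out, and at 0.19 with its most abundant transcript alone. Gatm stayed at -0.33 to -0.26 with each library left out, and turned to 0.11 after subtraction of its neighbours' median; the cause was not tested.

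The counts of all genes called (3742 higher, 3734 lower) were 3643 and 3612 with the replicate block, 4543 and 2742 with library totals alone, and 3462 to 3866 and 3325 to 3793 with each library left out. The labels do not say that same-numbered libraries are pairs. Correlations of their deviations ran from -0.11 to 0.12, which cannot settle whether they were paired. With the block Dusp9 (-0.17), Gldc (-2.15), Gnmt (1.39) and Slc6a12 (-1.20) were not called. Counts of the related lists that moved by over 1.5 times were these. Methyl donor supply had 0 higher genes with all genes of at least 1 read, with a minimum of 5 CPM and with the block, and 0 to 1 with each library left out. Arginine and glycine supply had 2 higher with 5 CPM (2 to 4 with each library left out) and 5 lower with library totals alone. Nucleotide kinases had 1 higher with 5 CPM, since Ak1 and Cmpk2 lay under that minimum and were not fitted. Likewise, Gnmt, Slc7a3, Nos2 and Slc6a12 of the other lists were not fitted there. Mitochondrial exchange had 1 higher with all genes of at least 1 read (1 to 2 with each library left out), and 0 lower with library totals alone and 1 with either other filter (1 to 3 with each library left out). SLC6 relatives had 1 lower with library totals alone, either other filter, limma-voom and the block (1 to 2 with each library left out). Among genes next to the members, Mark4 and Bcap31, not called, changed sign: 0.062 and 0.055 with library totals alone, 0.023 and 0.015 with 5 CPM, and -0.055 to 0.021 for Mark4 and -0.063 to 0.020 for Bcap31 with each library left out.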

Other observations

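Neuron markers were listed because Ckb is the brain form of the kinase. Of 7, 4 were tested and 3 rose (edgeR, adjusted p under 0.05), against 23.6% higher over all tested genes. Map2, a microtubule-associated protein gene, had 9.22 ± 0.352 CPM in the knockout and 2.15 ± 0.308 CPM in WT. Nefl, a neurofilament gene, had 11.8 ± 1.32 CPM in the knockout and 4.28 ± 0.487 CPM in WT. The neuronal genes Rbfox3 and Gap43 had no counts in the knockout, and at most 0.031 CPM on average in WT. The summed level of the list was 41.3 to 42.3 CPM in the knockout libraries and 19 to 22.8 CPM in the WT libraries.

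Markers of other cell types were at low levels. Fibroblast markers summed to 8.46 to 9.57 CPM in the knockout libraries and 3.24 to 4.71 CPM in WT (2 of 4 tested rose), macrophage markers to 8.11 to 9.38 and 5.45 to 9.6 CPM (1 of 3 rose), and endothelial markers to 4.79 to 6.41 and 2.45 to 4.25 CPM (1 of 4 rose). For comparison, 23.6% of all tested genes rose. Among 9 hepatocyte markers 1 was tested, the oncofetal gene Afp, which rose to 133.3 ± 11.9 CPM in the knockout, against 5.77 ± 0.567 CPM in WT. The part of these lists in the creatine gene values was not tested.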
